A study of Mus musculus with 4 samples.

Results

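Homing and adhesion genes are described here by 7 members of the 32285 genes measured: Cxcr4, Selplg, Itga4, Itgb1, Itgal, Cd44 and S1pr1. The rule lists them by name and uses no threshold on a measured value. Each was read in every cell barcode with at least 1000 detected genes and at most 10% of its UMIs (unique molecular identifiers, 1 per captured transcript) from mitochondrial genes. All 7 were detected in all 4 libraries. Levels are given as CPM, a gene's UMIs per 1000000 UMIs of the cells read. The mean over the libraries was at least 20 CPM for 5 of the 7, and lower for Itgal and S1pr1.

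Blood stem cells hold on to the bone marrow by a short set of surface receptors, and the same receptors bring transplanted cells back to it. The chemokine receptor CXCR4 follows CXCL12 made by marrow stroma, PSGL-1 (the product of Selplg) rolls on selectins, and the integrins VLA-4 (Itga4 with Itgb1) and LFA-1 (Itgal with Itgb2) give firm adhesion to VCAM-1 and ICAM-1. CD44 binds hyaluronan, and S1PR1 senses the lipid sphingosine 1-phosphate in blood and draws cells out of the tissue.

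The libraries hold mouse bone marrow cells taken 10 weeks after transplantation and sorted as donor-derived (CD45.2+), lineage negative, Sca1+ and Kit+. This population, called LSK, contains blood stem cells and multipotent progenitors. Cells were stained with barcoded antibodies and profiled by droplet 3-prime single-cell RNA sequencing. There was 1 library for each of 4 genotypes: control, Mll3 deleted, Mll4 deleted, and Mll3/4 deleted. Mll3 and Mll4 are histone methyltransferases encoded by Kmt2c and Kmt2d. The labels give the same sort and the same time after transplantation for all 4 libraries, and do not give how the genes were deleted, in which cells, the donor age or the number of mice. With 1 library per genotype there was no test, and every interval below is a 95% interval for counting error only.

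The filter left out 2909 of 7702 barcodes under the Mll4 label, with a median of 672 UMIs, against 388 to 459 in the other libraries. Cells numbered 7274 in the control and 6101, 4793 and 4748 under the Mll3, Mll4 and Mll3/4 labels, with 119328763, 105907176, 120700343 and 50792614 UMIs. Kmt2c was at 68.9, 35.3, 61.3 and 42.3 CPM in that order and Kmt2d at 24.6, 21.6, 22.6 and 25.4. Neither library labelled for Mll4 deletion thus had clearly less Kmt2d than the control. The 3-prime reads need not cover the deleted part, so libraries are named by their labels throughout. Kit was detected in every library at 215 to 362 CPM and Ly6a, the Sca1 gene, at 93.4 to 255. In the Mll3/4-labelled library 4721 cells, 99.4%, were high in B-lineage genes, against 16 cells in the control. The Mll4-labelled library held 991 cells high in granulocyte-monocyte progenitor genes, 676 high in mast cell or basophil genes and 549 high in macrophage or monocyte genes, and 1651 cells (34.4%) in no such class, against 95.8% of the control's cells. Between 9 and 22 barcodes were shared by any pair of libraries.

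All 7 genes lie on the mouse assembly GRCm38 in GENCODE release M21, and all are protein coding. Cxcr4 is at chr1:128588199-128592293 (minus strand), Selplg at chr5:113818536-113832644 (minus), Itga4 at chr2:79255426-79333123 (plus), Itgb1 at chr8:128685654-128733200 (plus), Itgal at chr7:127296260-127335138 (plus), Cd44 at chr2:102811141-102901665 (minus) and S1pr1 at chr3:115710433-115715072 (minus). Itga4 overlaps Cerkl on the opposite strand and Cd44 overlaps a small nuclear RNA gene on the opposite strand. The other 5 overlap no annotated gene.

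Promoter sequences of 4 of the 7 (Cxcr4, Itga4, Itgb1 and Cd44) matched by symbol in a RefSeq table on GRCm38.p6. Those of Cxcr4 and Cd44 are shown, as the members with such an entry whose level differed at least 2-fold from the control in a library. Each runs 300 bases 5′ to 3′ on the gene's own strand across its start. Capitals mark the GC box, GGGCGG or its complement CCGCCC, a motif of CpG-rich promoters. Cxcr4 is shown for chr1:128592250-128592549 and Cd44 for chr2:102901616-102901915.
Cxcr4: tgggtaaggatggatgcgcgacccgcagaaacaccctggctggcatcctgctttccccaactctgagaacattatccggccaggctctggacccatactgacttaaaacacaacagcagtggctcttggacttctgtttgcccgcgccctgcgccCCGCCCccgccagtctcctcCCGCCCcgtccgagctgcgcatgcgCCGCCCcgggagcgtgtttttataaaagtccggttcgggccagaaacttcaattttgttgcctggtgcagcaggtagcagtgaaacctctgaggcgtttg
Cd44: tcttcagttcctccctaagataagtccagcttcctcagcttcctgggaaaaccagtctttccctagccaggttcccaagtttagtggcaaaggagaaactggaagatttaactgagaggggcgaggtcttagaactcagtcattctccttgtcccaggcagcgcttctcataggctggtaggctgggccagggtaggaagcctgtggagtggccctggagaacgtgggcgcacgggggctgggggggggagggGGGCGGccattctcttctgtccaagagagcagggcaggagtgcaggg
The Cxcr4 promoter holds 3 GC boxes and the Cd44 promoter 1, and 35.7% of the 32851 promoters in the table hold at least 1. GGAA or its complement TTCC, the core bound by ETS factors, occurs 8 times in the Cd44 promoter and 1 time in that of Cxcr4, and 96.0% of all promoters hold it. Neither contains an E-box (CANNTG), which 72.3% of all promoters hold. Both strands were searched, and none of the 3 motifs contains another. A match describes these letters only.

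The labelled libraries differed from the control in members that they shared only in part. The Mll3-labelled library had lower S1pr1 and Itgal, the Mll4-labelled library had higher Cxcr4, and the Mll3/4-labelled library had higher Selplg and lower Itgal, S1pr1 and Cd44. A difference of at least 2-fold is a log2 ratio to the control of at least 1 in size, computed after adding 0.5 UMIs. By that measure 0 of 7 members were higher and 2 lower with the Mll3 label, against 3.49% and 1.83% of the 12706 genes whose mean was at least 1 CPM. With the Mll4 label 1 was higher and 0 lower, against 9.59% and 6.59% of genes. With the Mll3/4 label 1 was higher and 3 lower, against 10.7% and 17.4%. The median log2 ratio of the 7 members was -0.24, 0.59 and -0.11 in the same order. Over the 12706 genes it was 0.10, -0.10 and -0.13. Over the 6125 genes whose mean reached 20 CPM, a level that Itgal and S1pr1 did not reach, it was 0.10, -0.13 and -0.11.

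**Figure D1:**
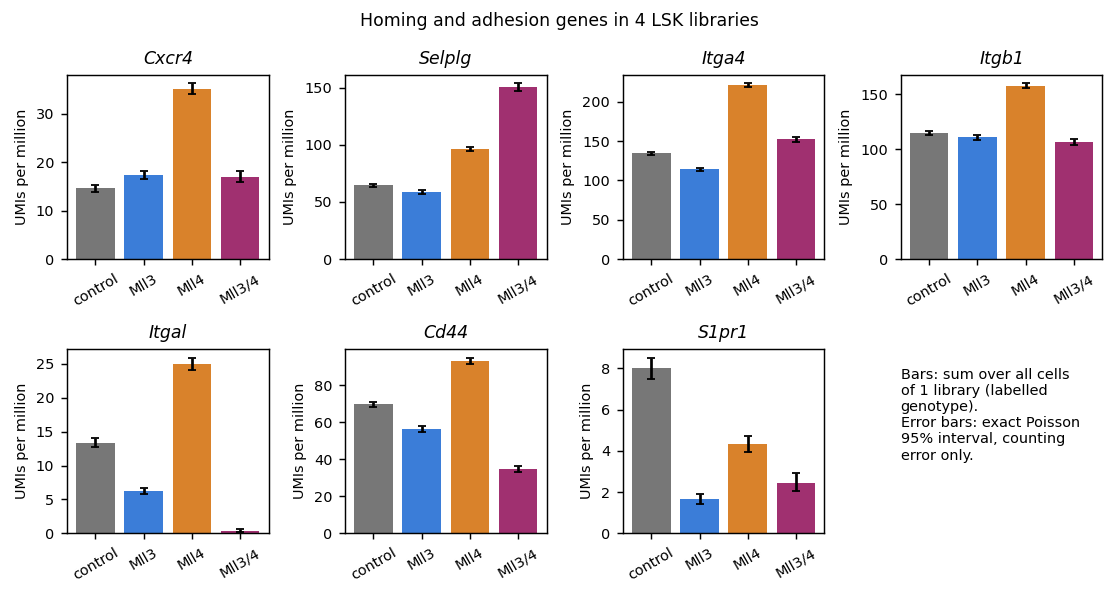
CPM (vertical axis, starting at 0) of each member in the control and under the Mll3, Mll4 and Mll3/4 labels; each bar is 1 library and its error bar an exact Poisson 95% interval. Cxcr4 stands highest in the Mll4-labelled library, Selplg in the Mll3/4-labelled library and S1pr1 in the control, and Itgal is close to 0 in the Mll3/4-labelled library.

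Cxcr4, the receptor for CXCL12, was measured at 14.6 CPM in the control (interval 13.9 to 15.3), 17.3 with the Mll3 label, 35.2 with the Mll4 label (34.1 to 36.2) and 16.99 with the Mll3/4 label. The Mll4-labelled library stood above the other 3, while the intervals for the Mll3 and Mll3/4 labels overlapped. Its log2 ratio to the control was 1.27 (1.19 to 1.35), against 0.25 (0.15 to 0.34) and 0.22 (0.10 to 0.34) for the other labels. After thinning every cell to 3000 UMIs, 3.99% of control cells had a Cxcr4 UMI, and 5.11%, 11.1% and 5.66% in the labelled libraries. Before thinning the shares were 19.2%, 23.2%, 44.9% and 15.4%, at median depths of 14454, 15381, 21400 and 8920 UMIs. Cells of the Mll4-labelled library outside every marker-high class kept a smaller difference. Without the marker-high classes other than B-lineage in any library, its log2 ratio was 0.65, under 2-fold, and with equal weight per cell it was 1.67.

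Selplg encodes PSGL-1, the selectin ligand on which leukocytes roll. Its level was 64.4 in the control, 58.5 with the Mll3 label, 96.6 with the Mll4 label and 150 (147 to 154) with the Mll3/4 label, in CPM. None of the 4 intervals overlapped, and the Mll3/4-labelled library was 2.33-fold above the control (log2 1.22, 1.18 to 1.27). The thinned share of cells with a Selplg UMI followed the same order, at 16.8%, 15.7%, 27.0% and 37.6%. For the Mll4 label the log2 ratio of 0.59 became 0.18 without the marker-high classes other than B-lineage and 0.94 with equal weight per cell.

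The VLA-4 integrin is made of the chains encoded by Itga4 and Itgb1. Itga4 stood at 135, 114, 221 and 152 CPM in the control and under the Mll3, Mll4 and Mll3/4 labels, and Itgb1 at 115, 111, 158 and 107. Both chains were highest with the Mll4 label (log2 0.71 for Itga4 and 0.46 for Itgb1) and neither reached 2-fold in any library when all UMIs were summed. Itgb1 under the Mll3 and Mll3/4 labels was within 0.11 of the control on the log2 scale. The Itga4 value for the Mll4 label turned on how marker-high cells were counted. Its log2 ratio was 1.59, past 2-fold, with equal weight per cell and -0.07 without the marker-high classes other than B-lineage, and that of Itgb1 was 0.83 and 0.33. Thinned shares were 33.7%, 26.8%, 48.3% and 36.9% for Itga4 and 28.5%, 29.0%, 40.4% and 26.8% for Itgb1.

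Itgal, the alpha chain of LFA-1, showed the widest spread of the 7 between libraries. It was at 13.3 CPM in the control (12.7 to 14.0), 6.22 with the Mll3 label (5.76 to 6.72), 25 with the Mll4 label (24.1 to 25.9) and 0.394 with the Mll3/4 label (0.241 to 0.608). The last value comes from 20 UMIs in 15 of 4748 cells, where the control had 1591 UMIs, a 33.0-fold difference (log2 -5.05, -5.80 to -4.45). It was present in 3.40% of thinned control cells, 1.84% with the Mll3 label, 9.83% with the Mll4 label and 0.085% with the Mll3/4 label. The Mll3-labelled library was 2.14-fold below the control (log2 -1.10, -1.23 to -0.97). That difference was under 2-fold when each cell had equal weight (-0.89) and when antibody gates were weighted to their control shares (-0.51), and larger without the marker-high classes other than B-lineage (-1.49). For the Mll4 label the log2 ratio was 0.91, with 0.08 without those classes and 2.18, past 2-fold, with equal weight per cell. Without the mast, macrophage, T and innate lymphoid and mature B classes alone it was -0.33.

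Cd44, the hyaluronan receptor, was at 69.6, 56.4, 93.2 and 34.6 CPM. The Mll4-labelled library was the highest and the Mll3/4-labelled library the lowest, with no overlap of the intervals. The Mll3/4 label lay at the 2-fold line (log2 -1.01, -1.08 to -0.93), and was just under with scaling by TMM or by median of ratios, with a stricter cell filter and with gates weighted to control shares. Cd44 was found in 19.1%, 15.4%, 24.7% and 9.18% of thinned cells. With the Mll4 label the log2 ratio of 0.42 became -0.01 without the marker-high classes other than B-lineage and 0.67 with equal weight per cell.

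S1pr1, the sphingosine 1-phosphate receptor, was at 7.99 CPM in the control (7.49 to 8.52), 1.66 with the Mll3 label (1.42 to 1.93), 4.32 with the Mll4 label (3.95 to 4.70) and 2.46 with the Mll3/4 label (2.05 to 2.93). The control was above all 3 labelled libraries and no intervals overlapped. The Mll3-labelled library was the lowest. The ratio to control was -2.26 on the log2 scale for the Mll3 label (-2.51 to -2.03), a 4.80-fold difference, and -1.69 (-1.98 to -1.43) for the Mll3/4 label. A UMI was found in 2.44%, 0.526%, 1.24% and 0.912% of thinned cells and in 11.2%, 2.56%, 7.32% and 2.36% of cells before thinning. The difference for the Mll3 label ranged from -2.40 to -2.18 over the 10 alternatives tried for it. For the Mll4 label it was -0.89, and 0.18 without the marker-high classes other than B-lineage.

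Cells were next compared within gates set on surface CD150, CD48 and CD135. Among CD135-negative cells, those with CD150 alone form the gate named HSC, after blood stem cells. Those with neither of the other antibodies form MPP1, those with both MPP2 and those with CD48 alone MPP3, where MPP stands for multipotent progenitor. These names are of gates and do not show what the cells in them are: 97.2% of HSC-gate cells with the Mll3/4 label were B-lineage-high. CD135-positive cells form MPP4, which is lymphoid-primed, when CD150 is absent, and the CD150+CD135+ gate when it is present. In the control, S1pr1 was at 11.9, 12.3 and 11.01 CPM in HSC, MPP1 and MPP2, and at 6.14 in MPP3 and 4.31 in MPP4. With the Mll3 label it was at 1.89, 1.21, 3.02, 1.40 and 1.69 in those gates. S1pr1 was thus lower in that library in each of 6 gates, by log2 ratios from -1.33 in MPP4 to -3.51 in CD150+CD135+, the last on 2 UMIs (interval -6.97 to -1.63). The HSC gate of the Mll4-labelled library, at 10.6, lay within counting error of the control (log2 -0.16, -0.51 to 0.17). In MPP3, which held 69.7% of its cells, the log2 ratio was -1.11 (-1.35 to -0.87). Without the marker-high classes other than B-lineage it was 0.38 (0.12 to 0.64). In MPP1 the ratio was -0.81 (-1.34 to -0.33) and, without those classes, -0.77 (-1.30 to -0.29). MPP4 went the other way without those classes, at 12.1 CPM from 51 UMIs against 4.61 in the control (1.39, 0.83 to 1.94). With all cells of MPP4 the ratio was 0.31 (-0.23 to 0.84). MPP2 lay within counting error with all cells (-0.11, -0.62 to 0.39) and without those classes (0.18, -0.39 to 0.72).

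Itgal followed the gates in the control: 1.77 CPM in HSC, 4.64 in MPP1, 11.5 in MPP2, 17.03 in MPP3 and 25.98 in MPP4. Over these 5 gates MPP4 stood highest and HSC lowest, as in the Mll3-labelled library (19.2 and 1.02). The Mll4-labelled library had 42.8 in MPP4 and 2.18 and 2.16 in HSC and MPP1. Without the marker-high classes other than B-lineage, MPP4 was at 17.97 with the Mll4 label and 23.8 in the control. The log2 ratio there was -0.40 (-0.79 to -0.04), against 0.72 with all cells of the gate. Itgal counts were too few with the Mll3/4 label to order the gates. That library had 0 Itgal UMIs in 215 HSC-gate, 154 MPP1-gate and 109 MPP2-gate cells, and 0.81 and 0.47 CPM in MPP3 and MPP4. Against a floor of 3 UMIs the level in MPP1 and MPP2 was at least 2.50-fold and 4.27-fold lower than in the control. The upper limits of the log2 ratio in the 3 gates with no UMI were 0.026, -0.98 and -1.77, so a difference was not detectable at this depth in HSC.

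Cxcr4 in the control was at 9.04 in HSC, 10.6 in MPP1, 13.4 in MPP2, 16.1 in MPP3 and 20.9 in MPP4. The Mll4-labelled library was above it in each of the 5 gates it could be read in, by 0.65 to 1.28 on the log2 scale, and by 0.20 to 1.03 without the other marker-high classes, where MPP2 lay within counting error (0.20, -0.31 to 0.68). Selplg with the Mll3/4 label was nearly level across gates, at 139 to 164 CPM, while the control ran from 35.7 in CD150+CD135+ to 87.4 in MPP4. Its log2 ratio was therefore 0.67 in MPP4 and 1.96 in HSC. Cd44 was lower with the Mll3/4 label in all 6 gates, by -0.56 to -1.45. Of that library's cells 94.5% to 100% in each gate were B-lineage-high, so the genotype label and the B-lineage transcripts cannot be told apart in them.

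**Figure D2:**
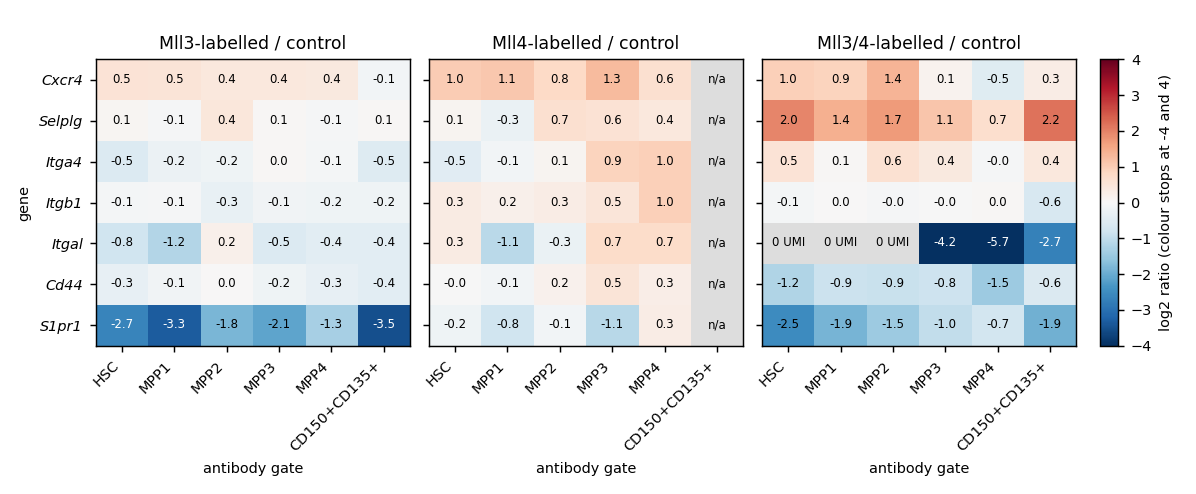
Log2 ratio to the control (colour and printed value) of each member (rows) in each antibody gate (columns) for each labelled library; grey marks a gate with under 100 cells (n/a) or a member with 0 UMIs there. The S1pr1 row is blue throughout for the Mll3 label, and the Selplg row is red throughout for the Mll3/4 label.

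Cells were also grouped by high levels of fixed marker genes, which gives ranges of a score and not cell types. A cell joined a class with at least 3 markers and at least 20 or 50 UMIs per 10000 from the list. In the Mll4-labelled library 210 cells lay within 25% of the cut for granulocyte-monocyte progenitor genes, 131 for mast, 143 for macrophage and 359 for T or innate lymphoid genes, the last more than the 211 cells in that class. Itgal in that library was at 282 CPM in macrophage-high cells, 99.9 in T or innate lymphoid-high cells and 2.21 in granulocyte-monocyte-high cells. In the control the granulocyte-monocyte-high cells had 31.9, at a median depth of 26452 UMIs. Of the control's cells 52 lay within 25% of that cut and 124 were in the class, so scores were not matched between these libraries. A UMI was seen in 45.4% of macrophage-high cells and 0.72% of granulocyte-monocyte-high cells of the Mll4-labelled library after thinning, at median depths of 7003 and 45540 UMIs. The share due to transcripts outside cells was not tested.

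Itga4 with the Mll4 label reached 1228 CPM in mast-high cells and 683 in macrophage-high cells, against 126 in cells of no class and 134 in the same cells of the control. Macrophage-high cells also had the highest Itgb1 (584), Cd44 (255) and Cxcr4 (81.8) of the 8 classes read in that library, counting cells of no class as 1. For Cxcr4 the cells of no class were at 22.3 in the Mll4-labelled library, 14.1 in the control and 16.1 with the Mll3 label. S1pr1 had the opposite pattern. In the Mll4-labelled library it was at 9.26 in cells of no class and 0.38 in granulocyte-monocyte-high cells, and in the control at 8.26 and 2.34. Cells of no class with the Mll3 label were at 1.55.

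**Figure D3:**
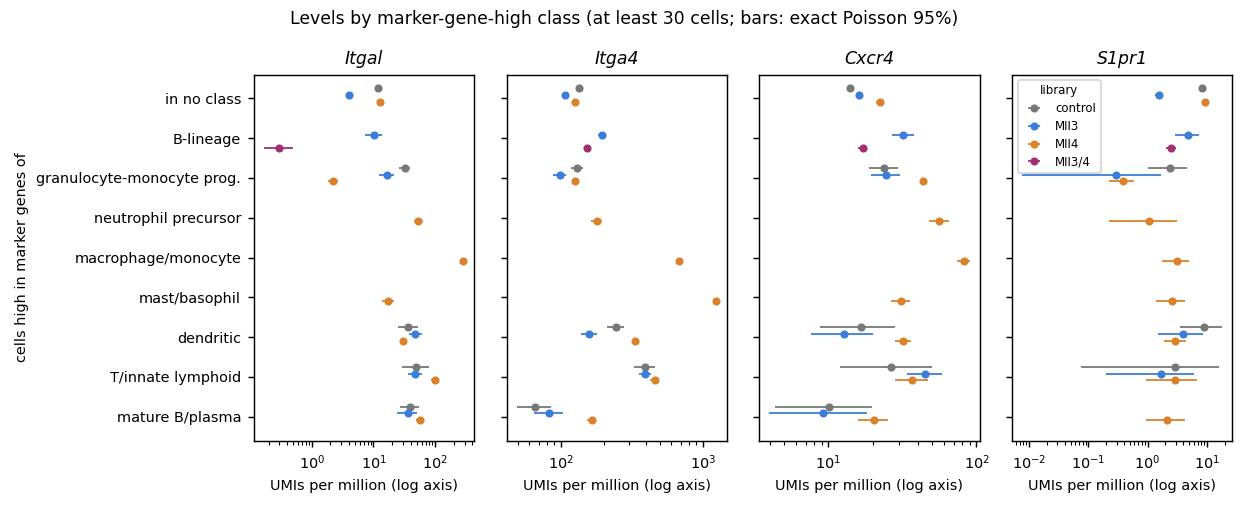
CPM (log axis) of Itgal, Itga4, Cxcr4 and S1pr1 in cells high in the marker genes named on the vertical axis, for classes of at least 30 cells; each point is 1 library, with an exact Poisson 95% interval, and levels of 0 are not drawn. Macrophage-high cells of the Mll4-labelled library lead for Itgal and Cxcr4 and its mast-high cells for Itga4, and S1pr1 in cells of no class is lower for the Mll3-labelled library than for the control and the Mll4-labelled library.

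B-lineage-high cells were found in number in the Mll3-labelled library (177 cells) and the Mll3/4-labelled library (4721 cells). The members were therefore read within that class. It has a lower cut and no upper limit, so scores were not matched between the libraries. Within 25% of the cut lay 24 cells with the Mll3 label and 2 with the Mll3/4 label. The class also made up unlike shares of the surface gates. With the Mll3 label its cells were 7.66% of MPP3 cells, 8.96% of MPP4 cells and 0.45% of CD150+CD135+ cells. With the Mll3/4 label they were 98.1%, 99.8% and 100% of the same gates, as 99.4% of that library was in the class. How the class spread over the gates with the Mll3 label is not given here. In the Mll3/4-labelled library MPP4 and CD150+CD135+ held 42.9% and 37.2% of cells. With gates on antibody counts that were not centred they held 70.1% and 5.81%. Itgal was at 10.2 CPM with the Mll3 label and 0.30 with the Mll3/4 label, from 45 and 15 UMIs (log2 -5.05, -6.04 to -4.22). Selplg was at 61.7 and 152 (log2 1.29, 1.12 to 1.48) and Itgb1 at 55.2 and 106 (0.94, 0.76 to 1.13). Cxcr4 was lower with the Mll3/4 label, at 31.9 and 17.1 (-0.91, -1.16 to -0.63). S1pr1 was at 4.75 and 2.50 (-0.96, -1.60 to -0.19). Cd44 was higher with the Mll3/4 label within this class, at 24.9 and 34.5 (0.47, 0.19 to 0.76), where it was lower in that library as a whole. Median depths were 23452 and 8901 UMIs per cell.

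Cells with at least 3 UMIs from 16 genes of the G2 and M phases after thinning (G2M-high) were set against cells with none, which can be in any other phase. Cxcr4 was higher in the first in the control (19.1 and 9.85 CPM, log2 0.95, 0.79 to 1.13), with the Mll3 label (21.8 and 12.2, 0.84) and with the Mll3/4 label (21.2 and 14.6, 0.54). With the Mll4 label the levels were 35.9 and 32.8 (0.13, 0.02 to 0.24). S1pr1 was lower in G2M-high cells in all 4 libraries, at log2 -0.64, -0.65, -0.75 and -1.61. Within the Mll4-labelled library Itgal and Itga4 differed most, at -2.70 and -1.43. Leaving out the marker-high classes other than B-lineage kept 668 of 1464 G2M-high cells and 553 of 1969 cells with no such UMI. Itgal was then at -0.28 (-0.56 to 0.004), within counting error, and Itga4 at -0.37 (-0.46 to -0.28).

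Within a thinned cell, a mean of 1.08 of the 7 members was detected in the control, 0.944 with the Mll3 label, 1.63 with the Mll4 label and 1.17 with the Mll3/4 label. No member was seen in 29.0%, 35.0%, 17.7% and 25.5% of cells. At least 3 members were seen in 6.53%, 4.73%, 21.5% and 7.91%. Over 23 sums of cells by library and gate, Itgal and Cd44 had the most alike levels of any pair of members (Pearson r 0.90), then Selplg and Itga4 (0.68). These sums share libraries, and the values are descriptions.

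The genes most like each member over the same 23 sums were read among genes whose mean reached 20 CPM. For Itgal they were Cd52, Tyrobp and Clec12a (r 0.94, 0.94 and 0.93), for Cd44 Rgs2, Emb and Wfdc17 (0.96, 0.95 and 0.95), and for Selplg Lpcat2, Clec2i and Slamf7 (0.97 each). Itgb1 was followed by Jak2 (0.94), Gfpt1 and Pdcd4, Cxcr4 by Dgkd (0.92), Id2 and Babam1, and Itga4 by Mia3 (0.86), Itgb2 and Sh3kbp1. S1pr1 was followed by Kmt2c (0.86), Mrpl52 and Rps27a. Kmt2c is the gene deleted under the Mll3 label, and 1 of those deleted under the Mll3/4 label. Its level was lowest in those libraries (35.3 and 42.3 CPM, against 68.9 in the control), as was that of S1pr1. This r therefore holds the differences between libraries given above, and a link between the genes was not tested.

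The wider set held 94 other homing and adhesion genes in 6 lists, of which 48 had a mean of at least 20 CPM. With the Mll3/4 label 6 of the 48 were at least 2-fold higher and 16 lower, against 6.07% and 10.5% of the 6125 genes at that level, with a median log2 ratio of -0.51. With the Mll4 label the counts were 7 and 2, against 4.98% and 3.28%, and the median -0.02. With the Mll3 label they were 1 and 0, against 1.09% and 0.457%, and the median 0.10. Without the marker-high classes other than B-lineage the Mll4 counts were 2 and 0, with no share of all genes given for that setting.

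Of the 6 genes read for selectins and for building their ligands, 1 was at least 2-fold higher and 4 lower with the Mll3/4 label. St3gal6, a sialyltransferase that caps selectin ligands, was at 8.77 CPM in the control, 12.3 and 7.71 with the Mll3 and Mll4 labels, and 487 with the Mll3/4 label (log2 5.79). Selp, P-selectin, went the other way, at 44.3, 33.7, 32.6 and 0.53 (log2 -6.36). Fut7, the fucosyltransferase for selectin ligands, was named after its values were seen, at 22.4, 17.4, 7.90 and 0.14. B4galt1, a galactosyltransferase named likewise, was at 18.5 and 21.7 in the control and with the Mll3/4 label (0.23). St3gal4 and Tpst2, of the same list and named likewise, were at 23.3 and 54.1 in the control. With the Mll3/4 label they were at 6.20 (-1.91) and 25.6 (-1.08). The selectin ligand gene Selplg and St3gal6 were therefore high, and Selp, Fut7, St3gal4 and Tpst2 low, in the same library. Of these low genes Selp, St3gal4 and Tpst2 are among the 4 counted, and the other 1 counted is not reported here.

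Among integrins and their activators, Itga1 (collagen-binding alpha 1) was at 0.85, 1.09, 147 and 0.43 CPM, so it was seen with the Mll4 label (log2 7.41, and 3.95 without the marker-high classes other than B-lineage) almost alone. Itgb2, the beta chain that pairs with Itgal, was at 11.5, 8.84, 52.4 and 18.8 (2.18 for the Mll4 label, and 0.24 without the marker-high classes other than B-lineage). Where Itgal nearly vanished its partner chain did not. Itgb7, the other beta chain of Itga4, was named after its values were seen, at 13.6, 13.1, 10.5 and 0.12. Rasgrp2, which switches on Rap1, was at 99.7 in the control and 827 with the Mll3/4 label (3.05) and Rhoh, a small GTPase of blood cells, at 91.9 and 482 (2.39). Fermt3, the kindlin needed for integrin activation, was at 167 and 12.9 in the same libraries and was also named after its values were seen.

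Chemokine receptors and exit signals added contrasts to Cxcr4 and S1pr1. Ackr3, the other receptor for CXCL12, named after its values were seen, had 1, 3 and 13 UMIs in the first 3 libraries and 1571 UMIs (30.9 CPM) with the Mll3/4 label. Ccr2, a monocyte receptor that was also in the macrophage marker list, was at 5.42, 7.16, 155 and 1.0 (log2 4.84 for the Mll4 label, and 3.84 without the marker-high classes other than B-lineage). Klf2, the transcription factor known to drive S1pr1 in lymphocytes, was higher in all 3 labelled libraries, at 5.89 in the control and 20.9, 36.4 and 24.6 with the labels (1.82, 2.62 and 2.06). Without the marker-high classes other than B-lineage these were 1.91, 0.70 and 2.45. S1pr1 itself was lower in all 3, and without those classes in the Mll3 and Mll3/4 labels but not the Mll4 label (0.18). An immediate early gene sum of 557, 1128, 534 and 438 CPM, which can mark handling of cells, was highest with the Mll3 label, and its part in these levels was not tested. The G protein regulators Rgs1 (121 and 1.18, log2 -6.67) and Rgs18 (165 and 4.65, -5.15) were lower with the Mll3/4 label than in the control, and Rgs2 was at log2 1.32 with the Mll4 label, but -0.16 without the marker-high classes other than B-lineage. S1pr4, another sphingosine 1-phosphate receptor, was at 31.7 in the control and 12.6 with the Mll4 label (-1.33, and -0.56 without those classes).

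The remaining named genes were other adhesion molecules. With the Mll3/4 label Cd34, a sialomucin of stem and progenitor cells, was at 5.18 CPM against 332 (log2 -6.00), and Cd24a, a sialoglycoprotein that was also in the B-lineage marker list, at 366 against 100.5 (1.86). With the Mll4 label Cd9, a tetraspanin, was at 35.2 against 91.2 (-1.37, and -0.70 without the marker-high classes other than B-lineage), and Adgrg1 (-0.97), Itga6 (-0.80) and Tpst2 (-0.77) were lower by under 2-fold. Except for Klf2 the named genes of the Mll3-labelled library stayed under 2-fold. St3gal6 (0.49), Cd9 (0.46), Ccr2 (0.40) and Itga1 (0.34) were the next highest, though without the marker-high classes other than B-lineage Ccr2 was -1.05 and Itga1 -0.56. The lowest were Pecam1 (-0.80), Alcam (-0.57), Arhgap15 (-0.54), Cd24a (-0.49) and Rgs2 (-0.42).

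**Figure D4:**
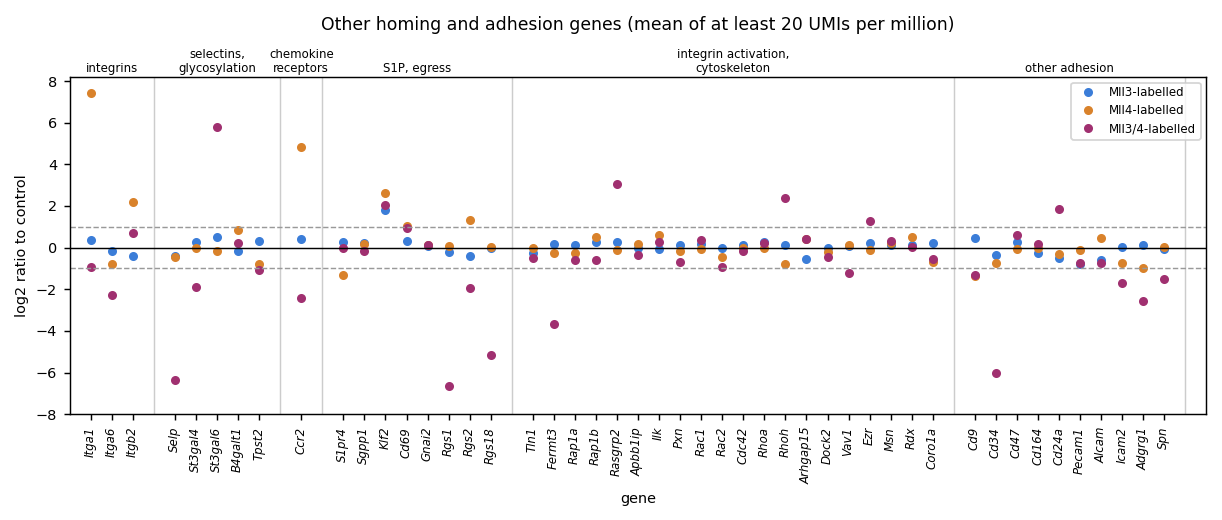
Log2 ratio to the control (vertical axis) of other homing and adhesion genes whose mean reached 20 CPM, by list (horizontal axis), for the 3 labelled libraries; dashed lines mark a 2-fold difference. Rgs1, Selp and Cd34 lie lowest and St3gal6 highest for the Mll3/4 label, Itga1 highest for the Mll4 label, and Klf2 is above the line for all 3.

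The B-lineage-high cells under the Mll3 and Mll3/4 labels also differed in genes of the wider set. St3gal6 was at 97.0 and 493 (2.35, 2.21 to 2.49), Fermt3 at 103 and 10.6 (-3.29), and Rhoh at 137 and 488 (1.83). Klf2 was at 32.8 and 24.8 (-0.41, -0.65 to -0.14), so within this class it was not higher with the Mll3/4 label. These genes were chosen here after their values were seen.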

How the data were processed

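The data are droplet single-cell counts. Per the file headers and the submitters' processing notes, the authors deposited raw UMI counts and antibody tag counts per barcode, written by Cell Ranger 6.1.1 with mm10. The barcode calling and intron settings are not given in the sources used here. UMIs of each of 32285 genes were summed per library and divided by the library total. Cells of another type within the sort therefore enter each level (CPM). The intervals are exact Poisson for sums, Clopper-Pearson for shares of cells and conditional binomial for ratios (scipy 1.17.1), at 95%. They cover neither amplification nor differences between animals. No doublets were removed, and an alternative left out the cells with the highest Scrublet scores. Thinning to 3000 UMIs left out 14, 17, 134 and 33 shallower cells. Gates used 1 threshold per antibody on centred log ratios, from a 2-component Gaussian mixture over all libraries. Cuts for marker-high classes were set after the scores were seen. On simulated Poisson counts the script recovered all changed genes, whose changes were set larger than 2-fold, so this checks the arithmetic only. The changed genes had at least 20 CPM in the control, a range without Cxcr4, Itgal and S1pr1. The simulation held no differences between animals or in cell mixture. The members and lists were chosen with earlier results of these data known. Named pathway genes are the 5 largest log2 ratios per library and direction, of which 1 gene is not reported here. The most alike genes are the 3 with the highest Pearson r. Gene identifiers were matched to GENCODE M21 for 32158 of 32285 (99.6%). Alternatives covered scaling, filters, doublets, cell weights, marker-high cells, gates and thinning.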

Additional observations from a re-analysis of the deposited data

Results flagged for a closer look

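Selplg also differed in barcodes that the comparisons do not use. In the 388 barcodes of the Mll3/4-labelled library left out for few genes or many mitochondrial UMIs, Selplg was at 215 CPM (150 UMIs), against 77.9 (85 UMIs) in the 408 such barcodes of the control, a log2 ratio of 1.46 (1.07 to 1.87). This was the same direction as in the cells kept, but the barcodes come from the same libraries. Itgal differed more in them, at 0 UMIs with the Mll3/4 label against 44 (40.3 CPM) in the control.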

How the results depend on the processing

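No paired analysis was possible because each genotype had 1 library. The 210 alternative values of the members' ratios to the control held 122 that moved by less than counting error, 82 that moved by more, up or down, without changing sign and 6 that changed sign. The Mll3/4 ratios ranged from -5.40 to -4.84 for Itgal and from 1.16 to 1.44 for Selplg, and S1pr1 with the Mll3 label from -2.40 to -2.18. Without all marker-high classes except B-lineage, an alternative added after the data were seen, 0 members and 2 pathway genes were at least 2-fold higher and 0 pathway genes lower with the Mll4 label, and 1 pathway gene was lower with the Mll3 label. There the Mll4 ratios changed sign for Itga4 (-0.068), Cd44 (-0.012), S1pr1 (0.18) and Rgs2 (-0.16), and the Mll3 ratios for Ccr2 (-1.05) and Itga1 (-0.56). Without mast, macrophage, T and innate lymphoid and mature B cells, Itgal with the Mll4 label was -0.33. With equal weight per cell 1 member was lower with the Mll3 label, where Itga1 was -0.56, and 3 members were higher and 4 pathway genes lower with the Mll4 label. With gates weighted to control shares 1 member was lower and 2 pathway genes higher with the Mll3 label, Selplg there was 0.047, and 4 pathway genes were higher and 1 lower with the Mll4 label. A minimum mean of 5 CPM gave 2 pathway genes higher for Mll3, 14 higher and 5 lower for Mll4, and 30 lower for Mll3/4. A minimum of 100 gave 0 higher for Mll3, 0 higher and 0 lower for Mll4, and 4 lower for Mll3/4, with fewer genes read. No share of all genes is given beside the counts under these alternatives. They describe the settings only and are not read as results about the members or lists. Median-of-ratios scaling put Itgb1 with the Mll3/4 label at 0.00044. It moved the median of all genes whose mean reached 20 CPM to -0.01 for that label, from -0.11. Without thinning, the share of cells with a UMI in the Mll3/4-labelled library minus the control was -3.87 percentage points for Cxcr4 and -12.3 for Itga4, where the depth per cell differs, and thinning to 1000 UMIs gave 0.043 for Itgb1. Gates on antibody counts that were not centred changed the sign for the Mll4 label of Cd44 (0.079) and S1pr1 (0.058) in HSC, Itgal (0.23) and Cd44 (0.10) in MPP1 and S1pr1 (-0.53) in MPP4. They did so for the Mll3/4 label of Itgb1 in MPP3 (0.12) and MPP4 (-0.087) and Itga4 in MPP4 (0.10). The sign also changed for the Mll3 label of Cxcr4 in CD150+CD135+ (0.19). Gate shares moved too, for MPP3 of the Mll4-labelled library from 69.7% to 43.2% of its cells. The HSC gate of the Mll3-labelled library went from 44.4% to 15.8%. Other than by the alternatives' own construction, the cause was not tested. Depth limits Itgal with the Mll3/4 label (20 UMIs) and S1pr1 within gates.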
